A study of Mus musculus with 11 samples.

Results

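The genes described here are 10 transporters of the inner blood-retina barrier, measured in endothelial cells sorted from mouse retinas. They were taken by name (Slc2a1, Slc16a1, Mfsd2a, Abcb1a, Abcg2, Slc7a5, Slc3a2, Slco1a4, Slco1c1 and Slc38a5) and matched by symbol to the Ensembl gene identifiers of the count files. All 10 of 10 were found among the 55359 genes of the files, and all 10 were among the 17050 genes with enough reads to be tested. The mice were labelled C57BL/6 and were pups of the oxygen-induced retinopathy (OIR) model, in which pups are raised in high oxygen and returned to room air, so that retinal vessels are first lost and then regrow abnormally. At postnatal day 12, eyes of 5 mice were injected into the vitreous with 0.5 µL of oncostatin M (OSM) at 100 ng/µL, and eyes of 6 mice with 0.5 µL of phosphate-buffered saline (PBS). All 11 mice carried the OIR treatment, and no mouse raised in room air was among the samples. OSM is a cytokine that signals through JAK kinases and STAT transcription factors. At postnatal day 17, both retinas of each mouse were pooled and the CD31+/CD45- cells were sorted, so each sample is 1 mouse. The methods describe PBS in contralateral eyes and leave unsaid if this holds for the sequenced mice, so the label of each mouse was used. The mice came from 3 litters, each a separate OIR experiment. Litter 1 (mice 1 to 4) and litter 2 (mice 5 to 8) each held 2 OSM-treated and 2 PBS-treated mice, and litter 3 (mice 9 to 11) held 1 OSM-treated and 2 PBS-treated mice. The count columns of mice 10 and 11 carry the next higher mouse number, and the numbers used here are those of the sample titles.

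Endothelial cells of the retina are sealed by tight junctions, so that nutrients cross them only on carriers, and many drugs and lipids that enter the membrane are pumped back into the blood. The carriers are solute carriers for glucose, lactate, amino acids, organic anions and hormones, and the pumps are ABC transporters that use ATP. In the brain and retina, these transporters are among the genes that distinguish barrier vessels from other vessels, and part of them is induced by Wnt and beta-catenin signalling in the endothelial cell.

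The libraries held 26697990 to 56033479 counted reads (median 32500202). The least counted transporter, Abcb1a, had 4988 to 9054 reads per mouse, and the most counted, Slc2a1, had 89612 to 187890. The 11 endothelial markers (among them Pecam1, Cdh5 and Vwf) summed to 11731 to 16261 CPM (counts scaled to a common library size) per mouse. The leukocyte and microglia sum was 0.395 to 10.2 CPM after OSM and 0.301 to 75.8 CPM after PBS, with the highest values in PBS-treated mice 4 (75.8) and 3 (23.4). In that list Ptprc, which encodes CD45, had reads in 5 of 11 mice and Lyz2 in all 11, with up to 65.8 CPM. The retinal pigment epithelium sum was 1.85 to 14.1 CPM after OSM and 2.68 to 14.5 CPM after PBS, where Lrat and Rgr were at 0 reads in all 11 mice and Best1 had reads in all 11. The mean sum of listed red blood cell markers (7) was 682 CPM after OSM and 324 CPM after PBS. For mural cell markers (9) it was 553 and 976 CPM. In both lists the ranges overlapped, the sums were not tested, and no gene passed adjustment. The red cell sum was 351 to 1135 CPM after OSM and 119 to 591 CPM after PBS. In the edgeR fit described below, 5 of the 5 red cell genes tested were higher after OSM at an unadjusted p under 0.05. Among all genes this held for 384 of 17050 (2.25%). The mural cell sum was 398 to 835 CPM after OSM and 307 to 1773 CPM after PBS. A lower fitted level after OSM was found in 9 of 9 mural genes, 1 of them at an unadjusted p under 0.05. Among all 17050 genes, 8794 had a lower fitted level, 462 of them at that unadjusted p. The rod photoreceptor sum was 203 to 5625 CPM after OSM, with the highest value in mouse 5, and 375 to 1538 CPM after PBS. The Müller cell sum was 208 to 359 CPM after OSM and 187 to 315 CPM after PBS. In that list Glul had a mean of 237 CPM, and Aqp4 had reads in 2 of 11 mice. The astrocyte sum was 2.27 to 6.66 CPM after OSM and 0 to 6.80 CPM after PBS. For platelet markers it was 8.15 to 14.2 and 4.36 to 18.3 CPM. Whether these admixtures had a part in the values of the transporters was not tested. In such bulk samples, fewer cells of a type and less RNA per cell cannot be told apart.

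All 10 transporters were expressed in every mouse, and their levels spanned a wide range. Levels between genes were compared as RPKM, that is CPM divided by the length in kilobases of the longest annotated transcript. The glucose carrier Slc2a1 was highest with 879 ± 209 RPKM (SD, n = 11 mice), followed by the amino acid carrier subunits Slc7a5 with 782 ± 239 and Slc3a2 with 577 ± 74.5. Slc38a5 had 561 ± 84.1 RPKM, Slc16a1 392 ± 94.8 and Mfsd2a 260 ± 48.8. The lower end was held by Slco1a4 with 115 ± 50.6 RPKM, Abcg2 with 113 ± 15.7, Slco1c1 with 80.9 ± 16.8 and Abcb1a with 40.1 ± 6.37 (SD, n = 11 each). Among the 17050 genes tested, the RPKM of the transporters ranked between the 91.9th and the 99.9th percentile. Neighbours in this order were compared within mice by an exact sign-flip permutation test of the log2 ratio, two-sided, with adjustment over the 9 neighbouring pairs. By this test 7 of 9 pairs differed. The order was set by the means of these same mice, and the p-values measure the spread between mice, not the choice of length. Slc2a1 was above Slc7a5 in 10 of 11 mice (mean log2 ratio 0.19 ± 0.22, SD, n = 11, adjusted p = 0.0213). Slc3a2 and Slc38a5 did not differ beyond their spread (log2 ratio 0.05 ± 0.33, Slc3a2 higher in 4 of 11 mice, exact permutation p = 0.648), and neither did Slco1a4 and Abcg2 (log2 ratio -0.08 ± 0.48, exact permutation p = 0.561). Both of these pairs changed places when the length of all annotated exons was used in place of the longest transcript. A pair that passed also depended on length. Slc38a5 was above Slc16a1 in RPKM in 10 of 11 mice (adjusted p = 0.00732), but in CPM, without length, Slc16a1 was higher (mean 1875 against 1118).

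**Figure D1:**
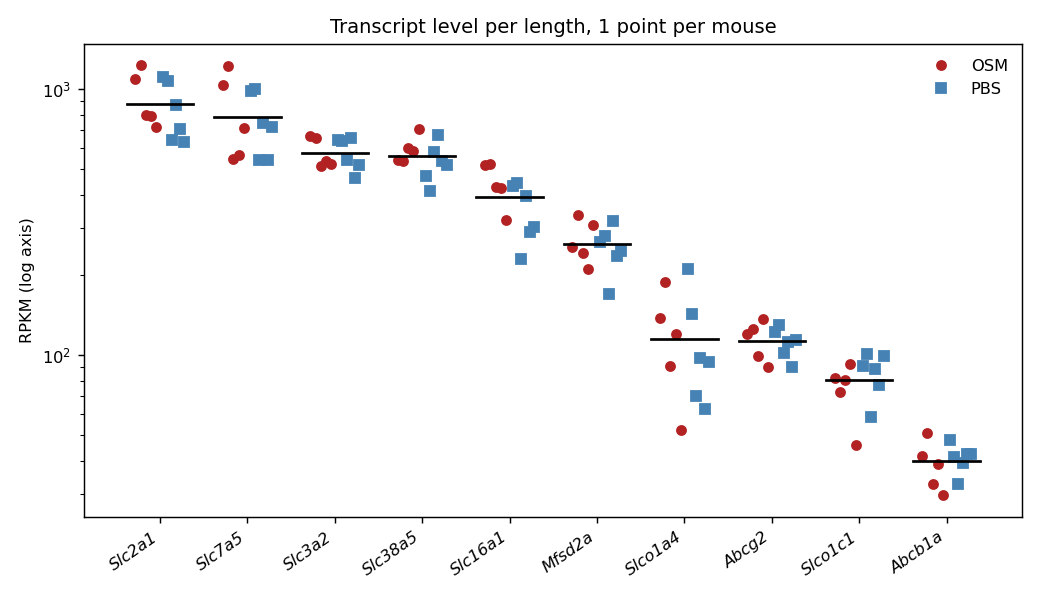
Level of each transporter in RPKM on a log axis, 1 point per mouse (red circles OSM, blue squares PBS), with the mean over 11 mice as a black line. Genes are ordered by mean, from Slc2a1 at 879 RPKM to Abcb1a at 40.1 RPKM, and the points of Slco1a4 are the most spread.

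Because the library reads were 50 bases long and reads with several possible origins are not counted at featureCounts' standard settings, every stretch of 50 bases of the longest transcripts was searched in the GRCm39 genome. Slc2a1, Slc16a1, Mfsd2a and Slc7a5 had no stretch that occurred elsewhere. In Abcb1a, 13.1% of the stretches occurred at another place of chromosome 5, which also carries its paralog Abcb1b, and in Slc3a2 10.1% occurred elsewhere. The share was 2.47% in Slco1a4, 1.48% in Abcg2, 0.822% in Slc38a5 and 0.613% in Slco1c1, and reads from such stretches would not be counted. Near paralogs of the transporters were almost silent. Abcb1b had 1.37 ± 1.77 CPM (SD, n = 11 mice), Slco1a5 0.863 ± 1.60, Mfsd2b 0.892 ± 0.956 and Abcg3 0.121 ± 0.231. Slco1a1 had 0.0223 ± 0.0541 CPM, Slco1a6 0.0122 ± 0.0240 and the monocarboxylate carrier gene Slc16a7 0.0130 ± 0.0342. Higher values were found for Slc16a3 with 23.4 ± 12.6 CPM and Slc7a8 with 35.4 ± 14.5 CPM. Slc38a3, a glutamine carrier related to Slc38a5, was the exception with 680 ± 89.5 CPM.

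The start regions of 4 transporters are shown because 3 of them (Slc2a1, Slc16a1 and Slco1a4) varied together across the 11 mice, whereas Slc38a5 did not vary with them. This contrast held only in part within litters. With the means of litter and treatment removed, the Pearson r of log2 CPM with Slc2a1 was 0.75 for Slc16a1, 0.29 for Slco1a4 and 0.41 for Slc38a5. Slc16a1 and Slco1a4 then had 0.56 with each other, and Slc38a5 had -0.04 with Slc16a1 and -0.29 with Slco1a4. The start regions come from RefSeq on GRCm38.p6, an older build than that of the counts. Each runs from 250 bases before the annotated start to 30 bases after it, 5′ to 3′ on the strand of the gene. Capitals mark ACGTG on either strand, the core letters of a hypoxia response element. The Slc2a1 region is chr4:119108495-119108774 (plus strand), the Slc16a1 region chr3:104638414-104638693 (plus strand), the Slco1a4 region chr6:141856191-141856470 (minus strand) and the Slc38a5 region chrX:8271131-8271410 (plus strand).
Slc2a1: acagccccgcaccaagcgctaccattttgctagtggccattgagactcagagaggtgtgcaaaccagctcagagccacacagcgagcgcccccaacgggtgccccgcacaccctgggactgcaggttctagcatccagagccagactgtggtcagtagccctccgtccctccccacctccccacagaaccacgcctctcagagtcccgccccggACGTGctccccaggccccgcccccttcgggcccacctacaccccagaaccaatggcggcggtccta
Slc16a1: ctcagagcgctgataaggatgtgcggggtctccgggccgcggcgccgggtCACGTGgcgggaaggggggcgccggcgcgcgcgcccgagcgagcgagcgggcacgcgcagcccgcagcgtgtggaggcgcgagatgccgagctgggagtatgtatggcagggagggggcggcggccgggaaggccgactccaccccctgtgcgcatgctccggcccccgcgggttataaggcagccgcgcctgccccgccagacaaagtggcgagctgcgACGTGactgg
Slco1a4: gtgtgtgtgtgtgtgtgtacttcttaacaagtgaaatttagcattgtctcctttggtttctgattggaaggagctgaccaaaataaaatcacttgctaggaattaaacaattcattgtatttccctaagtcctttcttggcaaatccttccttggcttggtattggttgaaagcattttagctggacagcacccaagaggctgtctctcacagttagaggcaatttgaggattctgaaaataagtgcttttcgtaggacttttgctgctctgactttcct
Slc38a5: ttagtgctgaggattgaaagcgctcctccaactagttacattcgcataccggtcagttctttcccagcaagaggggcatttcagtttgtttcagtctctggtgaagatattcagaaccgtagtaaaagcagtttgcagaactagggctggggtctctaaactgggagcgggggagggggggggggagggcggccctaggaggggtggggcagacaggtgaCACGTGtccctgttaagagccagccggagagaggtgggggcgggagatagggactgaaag
Slc2a1 held ACGTG at position -36 from the start site. In Slc16a1 and Slc38a5 the letters lay in CACGTG, which reads the same on both strands and is therefore matched on each, and Slc16a1 held a further ACGTG after its start site. Slco1a4 held none. Windows of 300 bases (250 before to 50 after the start) were found for 9 of the 10 transporters, with 3 windows for Abcg2, and for 32851 start sites in all. ACGTG was in 6 of the 11 windows of these 9 genes and in 19.6% of all windows. The LEF/TCF letters CTTTGA, searched on both strands, were in 3 of the 11 (Mfsd2a, Abcb1a and Slc3a2) and in 16% of all windows. The STAT letters TTCNNNGAA were in 0 of the 11 and in 8.3% of all. The G and C content of the 4 regions differed widely: over the 300 bases it was 65.3% in Slc2a1, 73.7% in Slc16a1, 56% in Slc38a5 and 40.7% in Slco1a4, against a median of 52.7% over all windows. These are matches of letters in short windows and no binding was measured.

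To ask whether the transporters differed 5 days after the injection, OSM-treated mice were set against PBS-treated mice in a quasi-likelihood model of edgeR that held terms for litter and for treatment, with Benjamini-Hochberg adjustment over all 17050 genes. None of the 10 transporters was called at an adjusted p under 0.05, and neither was any other gene (0 of 17050, 0%). At an unadjusted p under 0.05 the counts were 1 of 10 transporters and 846 of 17050 genes (4.96%), and genes higher after OSM at that level made up 2.25%. This count of transporters rested on single mice: it was 4 without PBS-treated mouse 8 (Slc2a1, Slc16a1, Mfsd2a and Slc38a5), 2 without mouse 7 (Slc16a1 and Slco1c1), 0 without mouse 2 or mouse 3 and 3 without litter 2, with 0 called after adjustment in each case. DESeq2 with the same terms called 0 of 10 transporters and 168 genes. The median log2 fold change of the 10 was 0.01, with 5 above and 5 below 0, and that of all genes was -0.01. In every transporter the values of OSM-treated and PBS-treated mice overlapped, as in all but 0.405% of the genes. Fold changes below are OSM over PBS, and CPM are scaled by TMM.

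Slc2a1 (ENSMUSG00000028645, chromosome 4 of GRCm39, 118965908 to 118996365) encodes GLUT1, which carries glucose from the blood into the retina. Its level was 4841, 5449, 3562, 3514 and 3200 CPM in OSM-treated mice 1, 2, 5, 6 and 9, and 2810 CPM at the lowest, 3516 at the median and 4940 at the highest in the 6 PBS-treated mice. The groups overlapped, and the high values of both groups were those of litter 1. The log2 fold change was 0.08, its standard error 0.078 (95% interval -0.09 to 0.26, or 0.941- to 1.20-fold, adjusted p = 1), and within litters it was 0.08, 0.09 and 0.10. Leaving out single mice moved it between 0.03 (without mouse 7) and 0.15 (without mouse 8).

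Slc16a1 (ENSMUSG00000032902, chromosome 3, 104545811 to 104565780) encodes MCT1, a carrier of lactate, pyruvate and ketone bodies. Its level was 2482, 2503, 2055, 2036 and 1543 CPM in OSM-treated mice 1, 2, 5, 6 and 9, against 1100 CPM at the lowest, 1668 at the median and 2129 at the highest after PBS. In each litter the OSM-treated mice were above the PBS-treated ones, but the OSM-treated mouse of litter 3 was below the PBS-treated mice of litter 1. The log2 fold change was 0.30 (SE 0.12, 95% interval 0.03 to 0.56), a ratio of 1.23, and it was 0.25, 0.51 and 0.12 within litters 1, 2 and 3. The unadjusted p was 0.0311 and the adjusted p 0.955, so the difference did not pass the test. Slc2a1 and Slc16a1 were the transporters whose fold change was above 0 in all 3 litters, which held for 11.3% of all genes. The PBS-treated mouse 7 was far below the other PBS-treated mouse of litter 2 (1100 against 1887 CPM), and without mouse 7 the log2 fold change of Slc16a1 was 0.18 (unadjusted p of 0.00818, adjusted p = 0.979). Without litter 2 it was 0.20.

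Mfsd2a (ENSMUSG00000028655, chromosome 4, 122840643 to 122855244) encodes a carrier of lipids with docosahexaenoic acid, which also keeps vesicle transport across barrier endothelium low. It had 602, 793, 570, 500 and 729 CPM in OSM-treated mice 1, 2, 5, 6 and 9, and 399.7, 604 and 753 CPM as the lowest, median and highest after PBS. The OSM values lay inside the PBS range except for mouse 2. Its log2 fold change was 0.09 (SE 0.15) with an adjusted p of 1, and the 95% interval of -0.24 to 0.43 leaves room for a ratio between 0.845 and 1.35. Without mouse 9 it was -0.0016, and without mouse 8 it was 0.27.

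Both efflux pumps had small differences. Abcb1a (ENSMUSG00000040584, chromosome 5, 8710022 to 8798575) encodes P-glycoprotein, which pumps out many drugs. It had 215, 263, 169.7, 201 and 153 CPM in OSM-treated mice 1, 2, 5, 6 and 9, and 169.8, 217 and 247 CPM as the lowest, median and highest after PBS. Mouse 9 had the lowest level of all, and the groups overlapped. The log2 fold change of Abcb1a was -0.11 (SE 0.12, 95% interval -0.37 to 0.15, adjusted p = 1) and 0.02 without mouse 9. Abcg2 (ENSMUSG00000029802, chromosome 6, 58561505 to 58672661) encodes the breast cancer resistance protein, a second pump for drugs and conjugates. It had 719, 753, 593, 818 and 539 CPM in the OSM-treated mice, in the same order, and 542, 677 and 773 CPM as the lowest, median and highest after PBS. The groups covered nearly the same range, and the fitted log2 difference of Abcg2 was -0.004 (SE 0.10, 95% interval -0.23 to 0.22, adjusted p = 1).

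Slc7a5 and Slc3a2 encode the light and the heavy chain of one carrier, LAT1 and CD98hc, which takes up large neutral amino acids such as leucine and also thyroid hormones and levodopa. Slc7a5 (ENSMUSG00000040010, chromosome 8, 122607884 to 122634433) had 3750, 4419.7, 1979.5, 2048 and 2594 CPM in OSM-treated mice 1, 2, 5, 6 and 9, and 1960, 2666 and 3648 CPM as the lowest, median and highest after PBS. Slc3a2 (ENSMUSG00000010095, chromosome 19, 8684245 to 8701108) had 2066, 2030, 1590, 1658 and 1620 CPM in these mice, and 1431, 1823 and 2022 CPM after PBS. In both genes the OSM values of litter 1 stood above those of litters 2 and 3, and the groups overlapped. The log2 fold change was 0.03 for Slc7a5 (SE 0.11, 95% interval -0.22 to 0.28) and -0.03 for Slc3a2 (SE 0.073, 95% interval -0.19 to 0.13), each with an adjusted p of 1. The interval of Slc3a2, a ratio of 0.878 to 1.10, was the narrowest of the 10.

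Slc38a5 (ENSMUSG00000031170, chromosome X, 8123870 to 8146425) encodes SNAT5, a carrier of glutamine, glycine and serine that is coupled to sodium. It had 1076, 1070, 1202, 1167 and 1414 CPM in OSM-treated mice 1, 2, 5, 6 and 9, and 825, 1053 and 1344 CPM as the lowest, median and highest after PBS. All OSM-treated mice were above the PBS median, and the groups overlapped. The log2 fold change was 0.19 (SE 0.088, 95% interval -0.01 to 0.38), a ratio of 1.14. The unadjusted p was 0.0606 and the adjusted p 0.955. It was 0.29, -0.08 and 0.43 within litters 1, 2 and 3, and 0.10 without mouse 9 and 0.34 without litter 2.

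Slco1a4 and Slco1c1 encode organic anion carriers. Slco1a4 (ENSMUSG00000030237, chromosome 6, 141751165 to 141802036) transports bile acids, steroid conjugates and drugs, and Slco1c1 (ENSMUSG00000030235, chromosome 6, 141469705 to 141516710) is a thyroxine carrier. Slco1a4 had 549, 747, 362, 479 and 209 CPM in OSM-treated mice 1, 2, 5, 6 and 9, and 249, 381 and 835 CPM as the lowest, median and highest after PBS. Slco1c1 had 365, 323, 359, 412 and 205 CPM in these mice, and 259, 401 and 447 CPM after PBS. Mouse 9 had the lowest level of both genes among all 11 mice, and both groups overlapped. These genes had the widest intervals: the log2 fold change was -0.05 for Slco1a4 (SE 0.19, 95% interval -0.48 to 0.37) and -0.25 for Slco1c1 (SE 0.18, 95% interval -0.66 to 0.16), each with an adjusted p of 1. Without mouse 9, the values were 0.11 for Slco1a4 and -0.04 for Slco1c1. For Slco1c1 the value was -0.41 without mouse 7 and -0.56 without litter 2 (adjusted p = 0.979 and 0.804).

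**Figure D2:**
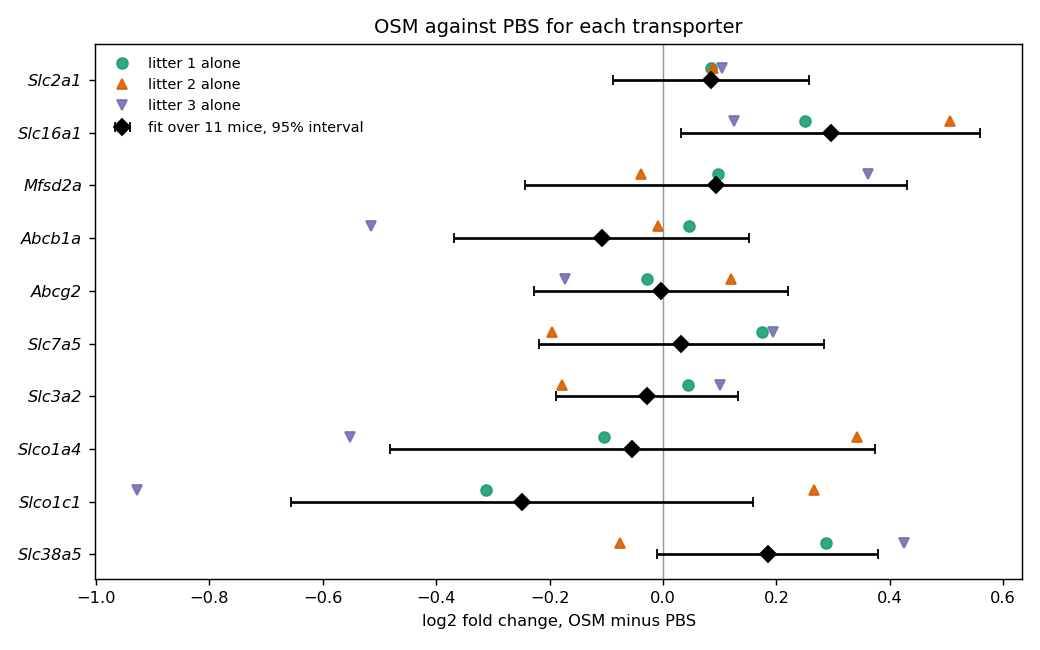
Log2 fold change of OSM over PBS for each transporter, with the fit over 11 mice as a black diamond, its 95% interval as a bar, and each litter alone as a coloured symbol. The interval of Slc16a1 (0.03 to 0.56) lies above 0 before adjustment and the other 9 include 0, and the litters of Slco1c1 lie on both sides of 0.

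Whether the fold change differed between litters was tested as a treatment by litter interaction on the same genes. It was called for 0 of 10 transporters and 0 of 17050 genes (0%) by edgeR, and 2 of 10 had an unadjusted p under 0.05, against 1095 genes (6.42%). In Slco1c1 the log2 fold change was -0.31, 0.27 and -0.93 in litters 1, 2 and 3 (unadjusted interaction p of 0.0182, adjusted p = 0.656). In Slc38a5 the interaction p was 0.0318 and the adjusted p 0.734. Litter 3 rests on mouse 9 as its only OSM-treated mouse.

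Between litters, fitted log2 differences of the transporters reached -1.29, against -0.25 to 0.30 between treatments. On the TMM scale, litter 1 had the highest fitted mean in 9 of 10 transporters and the lowest in Slc38a5. It was highest in 5 of 10 when libraries were scaled to endothelial markers. The share of all genes highest in litter 1 was not computed, so these counts cannot be read as particular to the transporters. For Slc2a1, Slc16a1, Slc7a5, Slc3a2, Slco1a4 and Slc38a5, 6 of 10, the F test of litter in the same edgeR fit had an unadjusted p under 0.05. The share of genes at this level was 10.3% of the 17050 and 31.6% of the 2134 with a mean of at least 100 CPM, where all 10 transporters lie. After adjustment, 0 of 10 transporters and 3 of 17050 genes (0.0176%) were called. In Slc2a1, Slc16a1, Slc7a5 and Slco1a4, each of the 4 mice of litter 1 was above each of the other 7 mice, which held for 4 of 10 transporters, 1.52% of all genes and 6.42% of those with at least 100 CPM.

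Slc2a1 had 4995 ± 312 CPM in litter 1 (SD, n = 4 mice), 3453 ± 428 in litter 2 (n = 4) and 3055 ± 213 in litter 3 (n = 3). Litter 1 was thus 1.45 times litter 2 and 1.62 times litter 3 in the fit, with an adjusted p of 0.0550, just above the threshold of 0.05. Leaving out single mice gave adjusted p-values from 0.0158 (without mouse 8) to 0.249 (without mouse 2), with a call only without mouse 7 (0.0360) or mouse 8. Slc7a5 had 3845 ± 390.5 CPM in litter 1, 2175 ± 360 in litter 2 and 2392 ± 372 in litter 3 (adjusted p = 0.0783, from 0.0158 without mouse 8 to 0.287 without mouse 2). The largest ratio was that of Slco1a4, with 675 ± 139, 377 ± 82.3 and 278 ± 87.0 CPM in litters 1, 2 and 3, or 1.79 and 2.45 times more in litter 1 (adjusted p = 0.107, or up to 0.327 without mouse 2). Slc16a1 had 2293 ± 231, 1769 ± 453 and 1458 ± 80.7 CPM (adjusted p = 0.225, from 0.0360 without mouse 7 to 0.480 without mouse 4), and Slc3a2 had 2017 ± 39.5, 1735 ± 195 and 1549 ± 103 CPM (adjusted p = 0.215). Slc38a5 ran the other way with 977 ± 120, 1218 ± 86.2 and 1173 ± 209 CPM in litters 1, 2 and 3 (adjusted p = 0.368). Mfsd2a, Abcb1a, Abcg2 and Slco1c1 had adjusted p-values of 0.509 to 0.867.

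**Figure D3:**
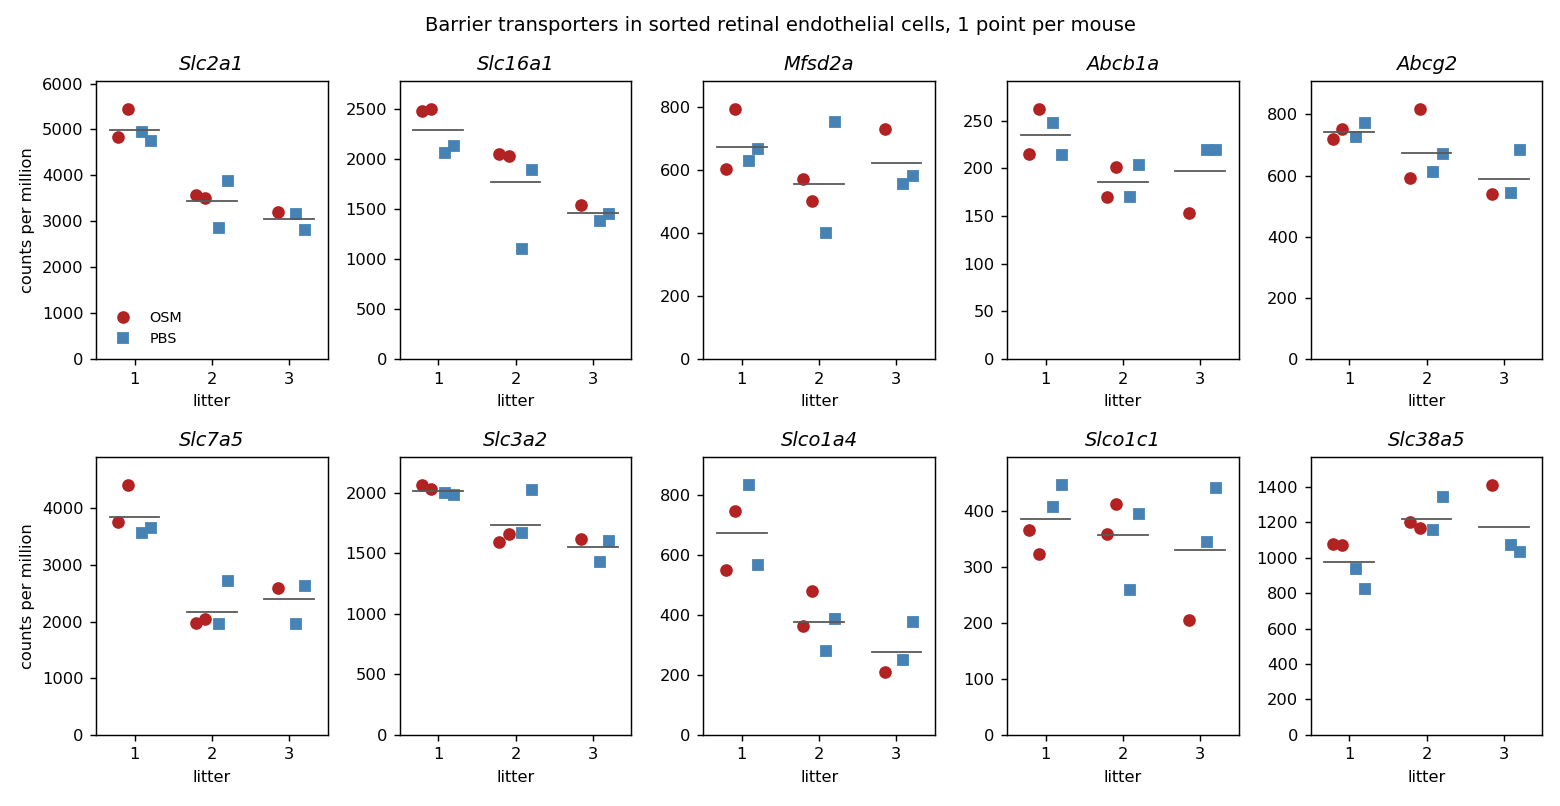
Level of each transporter in CPM by litter, 1 point per mouse (red circles OSM, blue squares PBS), with the mean of each litter as a grey line and each axis starting at 0. Litter 1 lies above the other 7 mice in Slc2a1, Slc16a1, Slc7a5 and Slco1a4, while Slc38a5 has its lowest litter mean there (977 CPM).

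Other measures set litter 1 apart as well. The summed endothelial markers were 15215 to 16261 CPM in litter 1 and 11731 to 14507 CPM in the other mice, and mitochondrial genes took 0.966% to 1.52% of the reads in litter 1 and 1.81% to 3.02% in the others. When the libraries were scaled to the endothelial markers in place of TMM, a setting added once the values were known, Slc2a1 was called with log2 differences of -0.22 (litter 2) and -0.47 (litter 3) from litter 1 (adjusted p = 0.0429). Slc38a5 was also called, with log2 differences of 0.64 and 0.51 (adjusted p = 0.0395), among 75 of 17050 genes (0.44%). On that scale Slc3a2 (log2 0.09), Abcg2 (0.18), Slco1c1 (0.22) and Mfsd2a (0.02) were higher in litter 2 than in litter 1, and Mfsd2a also in litter 3 (0.13), whereas all were lower than litter 1 on the TMM scale. Litter, OIR experiment and endothelial share cannot be told apart.

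The ratio of light to heavy chain differed less between treatments than between litters. The log2 ratio of Slc7a5 to Slc3a2 in CPM, not corrected for length, was 0.86, 1.12, 0.32, 0.30 and 0.68 in OSM-treated mice 1, 2, 5, 6 and 9. After PBS it was 0.23 at the lowest, 0.58 at the median and 0.88 at the highest. In CPM, Slc7a5 was thus above Slc3a2 in every mouse, and the groups overlapped. In RPKM, Slc7a5 was also above Slc3a2 in 11 of 11 mice, with a smaller mean log2 ratio of 0.39 ± 0.29. There the PBS-treated mouse 7 was close to a tie (539.34 against 539.31 RPKM). The mean difference between OSM and PBS within litters was 0.07 (exact permutation within litters, 108 splits, two-sided, p = 0.417). By litter the log2 CPM ratio was 0.93 ± 0.13 (SD, n = 4), 0.32 ± 0.08 (n = 4) and 0.62 ± 0.14 (n = 3), and no mouse of one litter fell within the range of another. The difference between litters in this ratio was not tested.

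**Figure D4:**
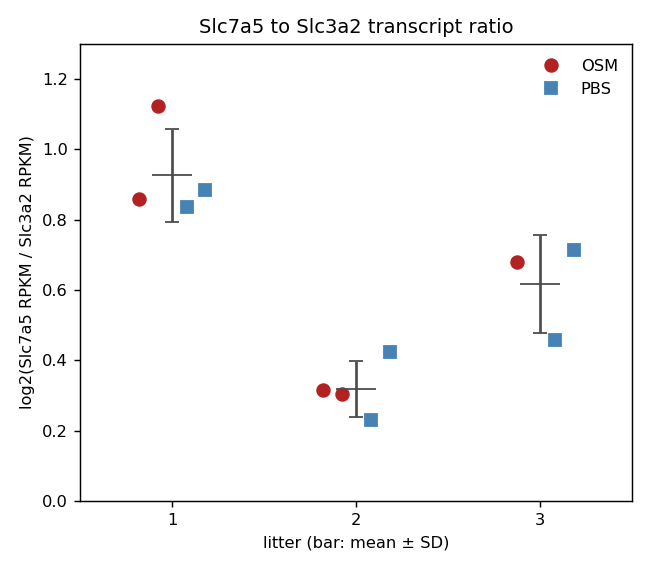
Log2 ratio of Slc7a5 to Slc3a2 CPM in each mouse by litter (red circles OSM, blue squares PBS), with the mean and SD of each litter as a grey bar. The ratio is not corrected for transcript length, although the axis names RPKM. The litters do not overlap, with means of 0.93, 0.32 and 0.62, while OSM and PBS mice lie side by side within each litter.

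Across the 11 mice, most transporters varied in the same direction. Of the 45 pairs, 37 had a positive Pearson r of log2 CPM (median 0.58), and 10 pairs passed a permutation test with 100000 resamples and adjustment over the 45 pairs, all of them positive. This test exchanges mice across litters and so takes no account of litter, and no p within litters was computed. The share of passing pairs among other genes of like level was not computed, so these counts cannot be read as particular to the transporters. By Spearman's rho 11 pairs passed, and 8 passed by both. The highest r was that of Slc2a1 and Slc16a1 (r = 0.87, p = 0.000510, adjusted p = 0.0166, rho = 0.92, rho adjusted p = 0.00765). Without the 2 mice farthest from the median of Slc2a1 it was 0.87. Slc7a5 and Slc3a2, the chains of one carrier, had r = 0.85 (adjusted p = 0.0239, rho = 0.78), or 0.79 without 2 mice. Slco1a4 took part in 6 of the 10 pairs, with Slc2a1 (r = 0.85), Abcg2 (0.84), Abcb1a (0.78), Slc16a1 and Slc3a2 (0.77 each) and Slc7a5 (0.75) as its partners.

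Because litter 1 stands apart in several of these genes, r was also computed after the means of litter and treatment were removed, since single litters of 3 or 4 mice are too small for an r of their own. The median over the 45 pairs was then 0.39, and 37 pairs were again positive. The r of Slc7a5 and Slc3a2 was 0.91 and that of Slc2a1 and Slc16a1 0.75, whereas Slco1a4 had 0.29 with Slc2a1, 0.25 with Slc7a5 and 0.06 with Slc3a2. Slc38a5 was negative with 8 of its 9 partners before this step and with 5 of 9 after it, and its r with Slc3a2 turned from -0.30 to 0.76 and with Slc7a5 from -0.47 to 0.59. Relative to the mean log2 CPM of the endothelial markers, the median r was 0.12 and 0 of 45 pairs passed the permutation test by r.

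**Figure D5:**
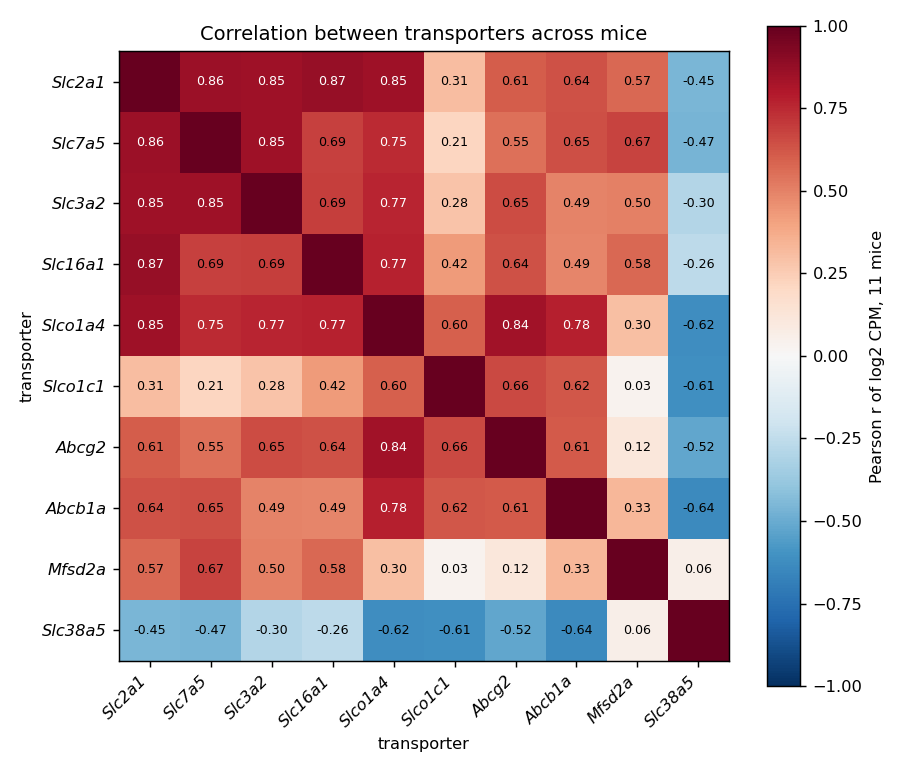
Pearson r of log2 CPM between transporters over 11 mice, with red for positive and blue for negative values. The block of Slc2a1, Slc7a5, Slc3a2, Slc16a1 and Slco1a4 is positive throughout, and the row of Slc38a5 is negative except with Mfsd2a (0.06).

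The genes with the most similar profile over the 11 mice were searched among 5496 genes with a mean log2 CPM of at least 5, as a description without a test, since all points share litters and libraries. For Slc2a1 they were Lef1 (r = 0.95), a transcription factor of the Wnt pathway, Dhrs3 (0.94) and Dusp1 (0.94). For Slc16a1 they were Slc46a3 (0.94), the choline and heme carrier gene Flvcr2 (0.93) and Ldlrad3 (0.92). Slc7a5 was most like Slco2b1 (0.96), another organic anion carrier, then Sparcl1 (0.93) and Ifnar2 (0.93), and Slc3a2 was most like Ei24 (0.98), Inpp5k (0.98) and Proser2 (0.96). The profile of Slco1a4 was closest to Slc44a1 (0.95), a choline carrier, Serinc3 (0.92) and Anks1 (0.92). Slc38a5 was closest to Cox6a1 (0.95), a subunit of cytochrome c oxidase, Mtx1 (0.95) and Tmem14c (0.94). Abcb1a was nearest to Fcho2 (0.95), Mia2 (0.93) and Mtus1 (0.93), and Abcg2 to Fbxo3 (0.93), St3gal6 (0.90) and Hspa8 (0.89). Mfsd2a was nearest to Dcaf7 (0.92), Tpst1 (0.91) and Slc4a2 (0.91), and Slco1c1 to Plekha3 (0.92), Reps1 (0.91) and Ufl1 (0.90). With litter and treatment removed, Lef1 and Slc2a1 had r = 0.68, whereas Flvcr2 and Slc16a1 had 0.91 and Ei24 and Slc3a2 0.98.

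Beside the 10, a broad list of 54 genes drawn up by name as other barrier transporters was examined, of which 52 had enough reads. None was called between OSM and PBS by edgeR, 0 were higher after OSM at an unadjusted p under 0.05, and the median log2 fold change was -0.06. Their median level was 13.9 RPKM, below the lowest of the 10 transporters, and 8 of them were under 1 RPKM. Whether each listed gene acts as a carrier at the barrier was not tested. The highest were the iron exporter gene Slc40a1 (270 RPKM), the taurine carrier gene Slc6a6 (139), Slc38a3 (120), the metal ion carrier gene Slc39a8 (109.7) and Slco2b1 (103). The log2 difference of Slc40a1 was 0.16 (SE 0.086, adjusted p = 0.961).

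Of 16 genes of the barrier program (tight junctions, Wnt pathway and transcription factors), all were tested and none was called by edgeR. The median log2 fold change was 0.13. Apcdd1, a Wnt pathway inhibitor, was higher after OSM at an unadjusted p of 0.0275 (493 against 436 CPM, log2 fold change 0.28, SE 0.11, adjusted p = 0.955). Plvap, the diaphragm protein of fenestrated and leaky endothelium, was lower at an unadjusted p of 0.0205 (88.8 against 155 CPM, log2 fold change -0.85, SE 0.31, adjusted p = 0.955). The tight junction gene Cldn5 was the highest of the list with 3317 RPKM (log2 fold change 0.16, SE 0.095, adjusted p = 0.984), followed by Itm2a (676 RPKM), Lsr (133), Sox17 (66.3) and Tspan12 (50.8). Lef1 differed by 0.14 on the log2 scale between OSM and PBS (SE 0.11, adjusted p = 1) and, like Slc2a1, had lower levels in litters 2 and 3 than in litter 1 (log2 -0.47 and -0.71, adjusted p = 0.109).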

How the data were processed

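Retinal endothelial cells of 11 OIR mice (5 OSM, 6 PBS) were sorted as CD31+/CD45- cells. The authors made cDNA with poly(A) priming, amplified it by PCR, prepared tagmented libraries and sequenced single reads of 50 cycles. They aligned the reads with STAR to GRCm39 and counted them per GENCODE gene with featureCounts, using default options. In the deposited files, 1 per mouse, the counts are unnormalized whole reads per gene. Because molecules were not tagged before PCR, the spread between mice, not counting error, was taken as the error, and p-values measure the spread between mice.

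Symbols, positions and transcript lengths came from GENCODE vM39. Models were fitted in edgeR 4.0.16 under R 4.3.3 (TMM, filterByExpr with a count minimum of 10, robust quasi-likelihood, threshold 0.05). Intervals are 95% and were derived, like the SE, from the F statistic. Litter membership came from the design text of the data series. Log2 CPM used a prior count of 2. RPKM used TMM-scaled CPM, and CPM of genes outside the 10 transporters were not TMM-scaled. DESeq2 1.42.0, other size factors and filters, thinning to the smallest library, and leaving out mice or litters were alternatives. The edgeR tests of treatment and of litter were tried on simulated counts, and the other tests were not. Of the other transporter and barrier program lists, the 5 highest and those with an unadjusted p under 0.05 are named, and all near paralogs, except for a result that is not reported here. The transporters, lists and tests were chosen with earlier results of these data known. Lef1, the hypoxia, LEF/TCF and STAT letters and the 4 start regions shown were chosen after values were seen.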

Additional observations from a re-analysis of the deposited data

How the results depend on the processing

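No paired analysis was possible because the mouse numbers are not shared between the treatments, and litter was a term of the model instead. Under 23 alternatives, 0 of the 230 values of the transporters passed the adjusted threshold, 200 kept their direction and 30, in 6 genes, reversed. The genes that kept their direction were Slc2a1, Slc16a1, Slco1c1 and Slc38a5. Without the litter term, the log2 fold change was 0.032 for Abcg2, 0.0056 for Slc3a2 and 0.059 for Slco1a4, and in DESeq2 without litter 0.029, 0.0024 and 0.058. Without litter 1 it was 0.011 for Abcg2 and -0.055 for Slc7a5, without litter 2 it was 0.061 for Slc3a2, and without litter 3 it was -0.0018 for Mfsd2a, 0.018 for Abcb1a, 0.052 for Abcg2, -0.020 for Slc7a5 and 0.11 for Slco1a4. Leaving out each mouse gave -0.0016 to 0.27 for Mfsd2a, -0.18 to 0.018 for Abcb1a, -0.096 to 0.052 for Abcg2, -0.023 to 0.14 for Slc7a5, -0.073 to 0.036 for Slc3a2 and -0.18 to 0.11 for Slco1a4. All genes called between OSM and PBS numbered 65 without a filter on low counts, 168 in DESeq2 with litter and 88 without it, none of them a transporter. The cause was not tested.

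For the litter difference, 3 genes and 0 transporters were called. The counts were 19 genes and 2 transporters (Slc2a1 and Slc7a5) without a treatment term, 14 and 1 (Slc2a1) with a mean above 10 counts and again after thinning, 75 and 2 with endothelial marker scaling, and 625 and 4 without a filter on low counts. Leaving out each mouse gave 0 to 44 genes and 0 to 2 transporters, the highest without mouse 8, and 0 genes without any one of mice 1 to 5, 9 or 11. The interaction called 305 genes without the filter on low counts. The order of levels changed among neighbours: Slc3a2 and Slc38a5 changed places with exon union length and without mouse 4, and Slco1a4 and Abcg2 with exon union length and without mouse 2 or 3. In CPM, Slc16a1 stood above Slc3a2 and Slc38a5, and Abcg2 above Mfsd2a. With neighbours taken anew from the order of each setting, 6 or 7 of 9 neighbouring pairs differed. The difference in the Slc7a5 to Slc3a2 ratio stayed between 0.03 and 0.11 and passed its test in no setting. No limit of detection was computed, and the intervals over 11 mice give the precision.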
